A study of Mus musculus with 12 samples.

Results

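Hox genes carry positional identity along the body axis, and 28 of them were measured in cells sorted around a spinal cord injury, where the paralog number of a gene stands for spinal level. The members are all genes of the table whose symbol begins with Hoxa, Hoxb, Hoxc or Hoxd and a number, which were 28 of 16389 genes. They comprised 8 Hoxa, 8 Hoxb, 6 Hoxc and 6 Hoxd genes, with paralog numbers 1 to 10. The rule would have taken opposite-strand transcripts as well, and 0 of them matched it. The GENCODE annotation of the same build holds 39 Hox genes, of which 11 were not analysed here, including every gene with a paralog number above 10.

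Hox genes encode homeodomain transcription factors that sit in 4 clusters, and the order of the genes in a cluster follows the order in which they are used from head to tail. Genes of low paralog number mark the hindbrain and cervical cord, those of middle number the brachial and thoracic cord, and those of number 10 and above the lumbar and sacral cord. The pattern is set in the embryo by Cdx factors, retinoic acid, Fgf and Gdf11 signals, is kept by Polycomb and Trithorax chromatin complexes, and is still present in adult neurons and glia.

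The study compared full transection (FT) and lateral hemisection (HS) of the cord at thoracic level 9 with non-injured cord (NI), in adult male Aldh1l1-EGFP mice of 12 weeks of age on a Swiss Webster background. In these animals a bacterial artificial chromosome transgene makes eGFP under the Aldh1l1 promoter, which is mostly active in astrocytes, and NI animals carry the same transgene. Living eGFP-positive cells were sorted from the segment around the lesion or from the matching segment of NI cord, each library pooled several animals, and polyA RNA was sequenced. The libraries numbered 1 of FT 1 week, 3 of FT 2 weeks, 3 of HS 1 week, 2 of HS 2 weeks and 3 of NI. Nothing in the labels says that the libraries of a group came from separate sorts, so p-values measure the spread between these libraries.

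The deposited values are normalized counts, which are reads per gene divided by 1 factor per library. The libraries held 8270643 to 15562378 reads in the table's genes, of which 468 to 2013 per library fell in the 28 Hox genes. The cells are labelled astrocytes, but the 12 oligodendrocyte markers summed to 56013 to 115300 normalized counts per library, against 1396 to 11285 for the 12 astrocyte markers. Sums of 14 microglia and macrophage markers ran between 938 and 15977, sums of 9 pericyte and fibroblast markers between 282 and 11815, and sums of 10 neuronal markers between 19.1 and 110. In these bulk libraries, fewer cells of a type and less RNA per cell cannot be told apart.

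Of the 28 genes, 27 had at least 1 read in every library, but the counts were low. The mean was under 5 normalized counts for 23 of the genes, and 8 genes reached 10 reads in every library. Hoxd8, Hoxc8, Hoxa4 and Hoxa7 together held 52.8% of the mean Hox signal.

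**Figure D1:**
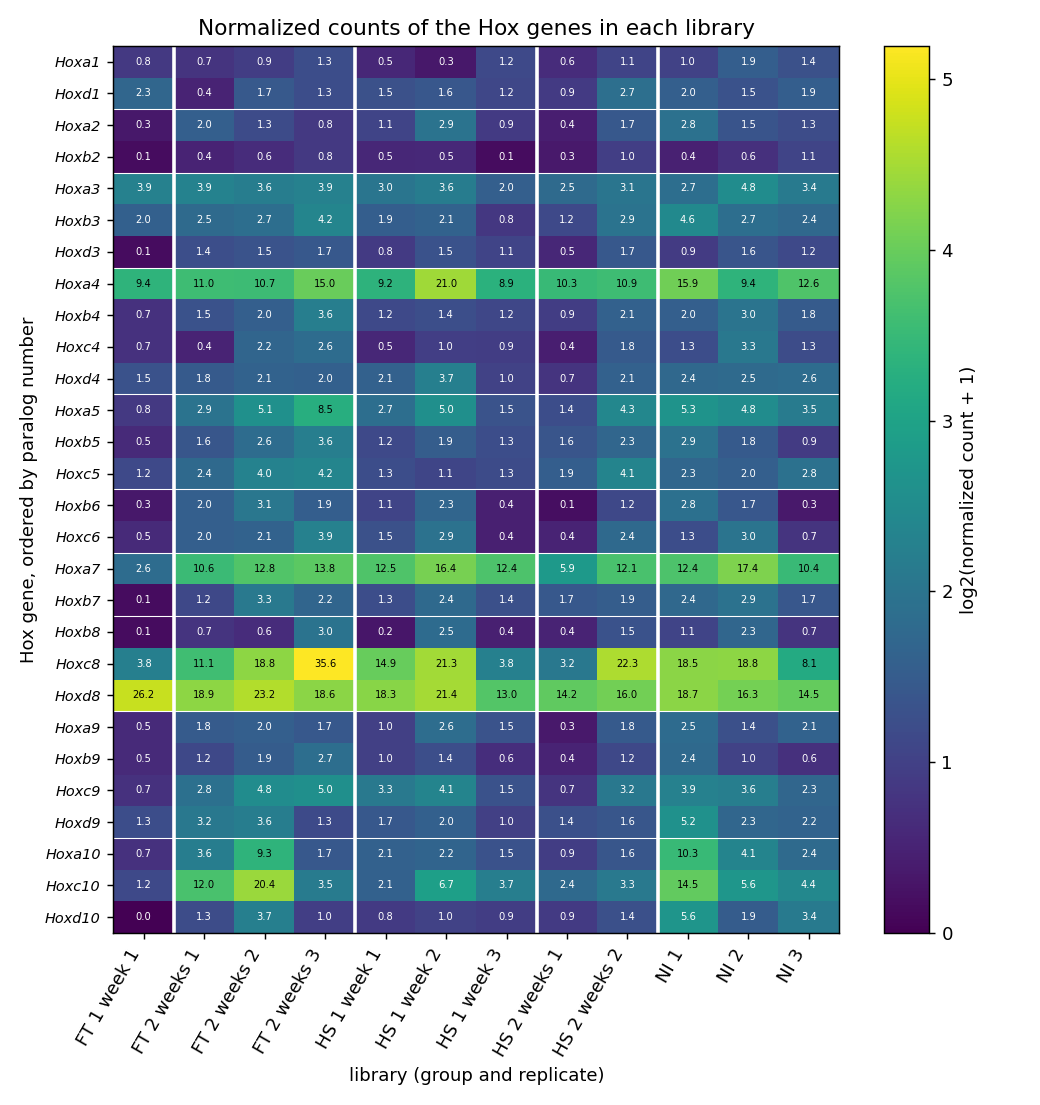
Normalized counts of the 28 Hox genes (rows, by paralog number) in the 12 libraries (columns, by group and replicate), with the value printed in each cell and the color showing log2(normalized count + 1). Hoxa4, Hoxa7, Hoxc8 and Hoxd8 stand out in most libraries, and the FT 1 week column is dark at Hoxa7, where it holds 2.55 normalized counts, and at Hoxd10, where it holds 0.

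Divided by the kilobases of exon in GENCODE, the order of levels was led by Hoxc8, with a median of 8.93 normalized counts per kb over the 12 libraries (1.71 to 19.0), Hoxa4 with 6.79 (5.60 to 13.2), Hoxd8 with 6.73 (4.75 to 9.54) and Hoxa7 with 4.99 (1.02 to 6.97). The ranges of these 4 genes over libraries overlap. Hoxc10 followed with a median of 2.11 per kb (0.633 to 10.7) and Hoxa5 with 2.07 (0.429 to 4.54). The other 22 genes had medians of 0.275 (Hoxb8) to 1.40 (Hoxb7) per kb, and neighbours in that order differed by less than their range. The leading genes therefore came from paralog numbers 4, 7 and 8, and the Hoxb cluster held 11.6% of the per-kb signal, against 36.6% for Hoxa, 30.4% for Hoxc and 21.4% for Hoxd. The library kit does not mark strand, and Hoxa7, Hoxd8, Hoxb3 and others have antisense neighbours, so their levels may include reads of the other strand. Overlapping gene models, such as Hoxc5 across Hoxc6 to Hoxc10 and Hoxd3 with Hoxd4, make the split of reads between those genes uncertain.

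The 3 genes of paralog number 10 mark the lumbar cord, and in mouse Hoxa10, Hoxc10 and Hoxd10 pattern lumbar motor neurons. All 3 were lowest in the FT 1 week library, lay mostly below NI in the HS libraries and spread over a wide range in FT 2 weeks and NI. Hoxd10 (ENSMUSG00000050368.4, GRCm38 chr2:74691924-74695105, plus strand, position from GENCODE as for the genes that follow) had 0 normalized counts in FT 1 week, 1.31, 3.73 and 0.964 in FT 2 weeks, 0.849, 1.04 and 0.918 in HS 1 week and 0.854 and 1.39 in HS 2 weeks, against 5.58, 1.85 and 3.38 in NI. The FT 1 week and HS libraries lay below every NI library, and FT 2 weeks overlapped NI. With 0 reads in the FT 1 week library, where 3 reads are worth 0.403 normalized counts, Hoxd10 was at least 8.95-fold lower there than the NI mean, and this limit covers counting error in that library only. Hoxa10 (ENSMUSG00000000938.11, chr6:52231197-52240854, minus strand) had 0.672 normalized counts in FT 1 week, 3.58, 9.32 and 1.70 in FT 2 weeks, 2.06, 2.17 and 1.47 in HS 1 week and 0.925 and 1.61 in HS 2 weeks, against 10.3, 4.09 and 2.45 in NI. Again the FT 1 week and HS libraries lay below every NI library, while NI replicate 1 and FT 2 weeks replicate 2 stood above the rest. Hoxc10 (ENSMUSG00000022484.7, chr15:102966796-102971893, plus strand), the highest gene of this number, had 1.21 normalized counts in FT 1 week, 11.98, 20.4 and 3.48 in FT 2 weeks, 2.06, 6.68 and 3.67 in HS 1 week and 2.42 and 3.297 in HS 2 weeks, against 14.5, 5.62 and 4.39 in NI. Here HS 1 week overlapped NI through HS 1 week replicate 2, and FT 2 weeks reached above NI.

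Tested with limma-trend on log2(normalized count + 1), none of these 3 genes passed an adjusted p of 0.05. In FT 1 week against NI the log2 fold change was -2.12 for Hoxd10 (SE 0.514, limma adjusted p = 0.132), -1.89 for Hoxc10 (SE 0.829, limma adjusted p = 0.43) and -1.80 for Hoxa10 (SE 0.716, limma adjusted p = 0.381). In HS 1 week against NI, Hoxd10 had -1.17 (SE 0.363, limma adjusted p = 0.502), and in HS 2 weeks against NI it had -1.05 (SE 0.406, limma adjusted p = 0.591). The change is smaller on this scale than in normalized counts because 1 was added to values near 0. Over the mean of the 4 injured groups against NI, Hoxd10 had -1.25 (SE 0.305, limma adjusted p = 0.122).

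The count tests on the recovered reads differed on these genes. The likelihood ratio test of edgeR called Hoxd10 in FT 1 week against NI (FDR 0.00456) and, over all injured groups, Hoxd10 (FDR 0.000301) and Hoxa10 (log2 fold change -1.74, FDR 0.0415). DESeq2 called Hoxd10 in both (adjusted p = 0.0447 and 0.0039). The quasi-likelihood test of edgeR called neither (smallest adjusted p = 0.0714 for Hoxd10). The call of Hoxa10 was lost in 5 of the fits that left out 1 library, namely without HS 1 week replicate 1, HS 2 weeks replicate 1, FT 2 weeks replicate 1, NI replicate 1 or NI replicate 2, in each of which 1 gene, Hoxd10, was called. The Hoxd10 gene is in a supplementary table of the study, and so is not an independent choice.

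**Figure D2:**
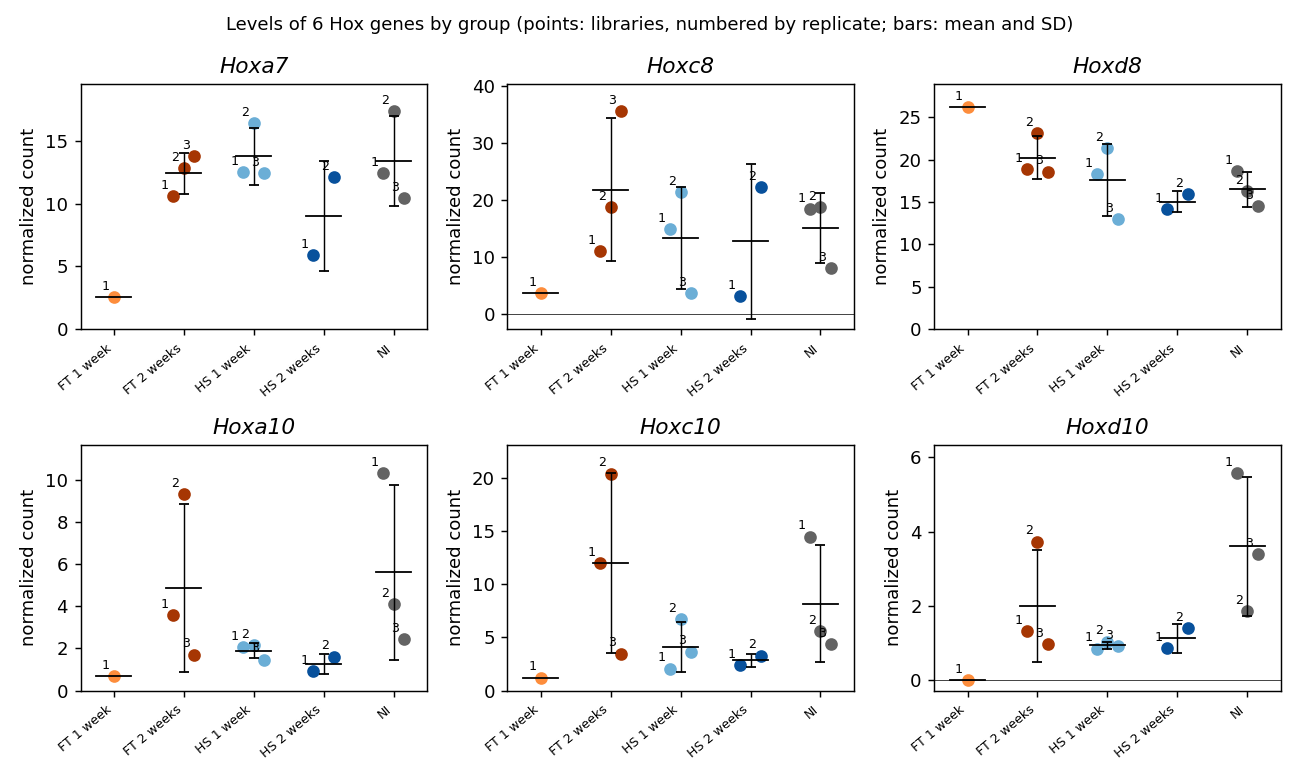
Normalized counts of Hoxa7, Hoxc8, Hoxd8, Hoxa10, Hoxc10 and Hoxd10 in the 5 groups, with 1 point per library numbered by replicate, a line at the group mean and bars of 1 SD where the group has more than 1 library. Hoxd10 is at 0 in FT 1 week and below every NI library in HS 1 week and HS 2 weeks, and Hoxd8 is highest in FT 1 week, at 26.2 normalized counts.

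The sequences before the starts of Hoxd10 and Hoxa10 are shown because these 2 genes carry the calls at paralog number 10. They are the 250 bases before each RefSeq start (GRCm38.p6), 5′ to 3′ on the strand of the gene, in lower case, with the core motifs TATAAA and CCAAT in capitals on either strand (TTTATA and ATTGG on the other).
Hoxd10, chr2:74691641-74691890, plus strand: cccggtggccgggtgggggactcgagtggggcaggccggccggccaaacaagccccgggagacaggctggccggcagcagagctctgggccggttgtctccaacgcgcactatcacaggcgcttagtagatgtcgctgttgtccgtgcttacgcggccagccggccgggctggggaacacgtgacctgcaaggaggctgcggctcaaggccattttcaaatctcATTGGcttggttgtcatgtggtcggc
Hoxa10, outer start, chr6:52240855-52241104, minus strand: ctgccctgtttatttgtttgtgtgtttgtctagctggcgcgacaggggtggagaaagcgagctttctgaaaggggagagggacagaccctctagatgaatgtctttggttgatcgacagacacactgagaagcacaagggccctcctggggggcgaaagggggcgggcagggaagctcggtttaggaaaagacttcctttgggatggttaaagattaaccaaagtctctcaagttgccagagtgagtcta
Hoxa10, inner start, chr6:52234940-52235189, minus strand: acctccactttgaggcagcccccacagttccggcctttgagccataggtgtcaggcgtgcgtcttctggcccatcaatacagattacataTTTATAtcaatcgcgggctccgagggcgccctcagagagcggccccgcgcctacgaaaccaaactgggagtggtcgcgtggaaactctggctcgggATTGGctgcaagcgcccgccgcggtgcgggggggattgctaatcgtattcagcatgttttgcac

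Hoxd10 held 1 CCAAT in the reverse orientation, ending 21 bases before the start, the inner Hoxa10 window held 1 TATAAA and 1 CCAAT in the reverse orientation, and the outer Hoxa10 window held neither. The windows were 65.6%, 59.2% and 51.6% GC, against a median of 52.4% over all promoters. RefSeq windows were matched for 15 of the 28 genes, with 16 windows in all. Over these 16, CCAAT was found in 9, against 33.8% of all 32851 windows, and TATAAA in 3, against 12.4%. TTTATG, a motif bound by Cdx factors, was found in 4 of the 16, against 10.8% of all windows, and TGATTNAT, a motif of Hox and Pbx proteins, in 1 of the 16, against 2.82%. The motifs were searched on both strands, TTTATG shares its first 5 letters with TTTATA, and neither of the last 2 motifs lay in the windows shown. A match describes letters in the window and is not a measured site.

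Among the middle genes, Hoxa7 and Hoxb7 were low in the FT 1 week library. Hoxa7 (ENSMUSG00000038236.8, chr6:52214491-52221854, minus strand), which in mouse acts at thoracic levels, had 2.55 normalized counts in FT 1 week, 10.6, 12.8 and 13.8 in FT 2 weeks, 12.5, 16.4 and 12.4 in HS 1 week and 5.91 and 12.1 in HS 2 weeks, against 12.4, 17.4 and 10.4 in NI. The FT 1 week library lay below the other 11, HS 2 weeks replicate 1 was the next, and the other groups overlapped NI. In FT 1 week against NI the log2 fold change was -1.99 (SE 0.416, limma adjusted p = 0.0767), which missed the threshold, while the likelihood ratio test gave an FDR of 0.0223, DESeq2 an adjusted p of 0.00378 and the quasi-likelihood test an adjusted p of 0.12. Without NI replicate 2 the likelihood ratio test called 1 Hox gene, Hoxd10, in place of 3. FT 1 week has 1 library, which is assumed to vary like those of the other groups.

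Hoxb7 (chr11:96286623-96290162, plus strand), a paralog of Hoxa7 in another cluster, had 0.134 normalized counts in FT 1 week, 1.17, 3.26 and 2.22 in FT 2 weeks, 1.33, 2.43 and 1.41 in HS 1 week and 1.71 and 1.90 in HS 2 weeks, against 2.36, 2.87 and 1.66 in NI. With 1 read, the FT 1 week library lay below the other 11. Hoxb7 had a log2 fold change of -1.52 in FT 1 week against NI (SE 0.396, limma adjusted p = 0.158), and the likelihood ratio test called it (FDR 0.0367), while DESeq2 did not (adjusted p = 0.17). The likelihood ratio call of Hoxb7 was lost without NI replicate 2 or FT 2 weeks replicate 3. Mira, a long non-coding RNA that RefSeq places at the 3′ end of the GENCODE Hoxa7 model, had 0.537 normalized counts in FT 1 week, 5.26, 4.43 and 10.7 in FT 2 weeks, 5.21, 7.11 and 5.69 in HS 1 week and 2.13 and 6.96 in HS 2 weeks, against 5.66, 11.4 and 7.27 in NI. Its FT 1 week value also lay below all others (likelihood ratio test FDR 0.0181, limma adjusted p = 0.119), and reads of Mira and Hoxa7 may not be fully separable. Hoxc6 (chr15:102998257-103011881, plus strand), a brachial gene and the highest of paralog number 6, had 0.537 normalized counts in FT 1 week, 1.97, 2.10 and 3.85 in FT 2 weeks, 1.45, 2.86 and 0.367 in HS 1 week and 0.427 and 2.42 in HS 2 weeks, against 1.34, 3 and 0.720 in NI. The low libraries were HS 1 week replicate 3, HS 2 weeks replicate 1, FT 1 week and NI replicate 3, so all groups with several libraries but FT 2 weeks reached below 1 normalized count.

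Paralog numbers 8 and 9 hold the genes of brachial to thoracic cord, and did not move as 1 group. Hoxd8 (ENSMUSG00000027102.4, chr2:74704615-74707933, plus strand), the highest Hox gene by mean, had 26.2 normalized counts in FT 1 week, 18.9, 23.2 and 18.6 in FT 2 weeks, 18.3, 21.4 and 13.03 in HS 1 week and 14.2 and 16.0 in HS 2 weeks, against 18.7, 16.3 and 14.5 in NI. The FT 1 week library was the highest of all 12, and the library range over all groups was 2.01-fold, the narrowest of the 28. The log2 fold change in FT 1 week against NI was 0.64 (SE 0.32, limma adjusted p = 0.493). Hoxc8 (ENSMUSG00000001657.7, chr15:102990607-102994111, plus strand), a brachial gene of the same number that was chosen after its values were seen, had 3.76 normalized counts in FT 1 week, 11.1, 18.8 and 35.6 in FT 2 weeks, 14.9, 21.3 and 3.79 in HS 1 week and 3.20 and 22.3 in HS 2 weeks, against 18.5, 18.8 and 8.06 in NI. The range was 11.1-fold, and it split the libraries of single groups, since HS 2 weeks replicate 1 held 3.20 and HS 2 weeks replicate 2 held 22.3. Its log2 fold change in FT 1 week against NI was -1.67 with an SE of 1.03 (limma adjusted p = 0.589). Hoxc9 (chr15:102976439-102985099, plus strand), which in mouse sets the thoracic against the brachial motor program, had 0.672 normalized counts in FT 1 week, 2.78, 4.78 and 4.97 in FT 2 weeks, 3.27, 4.08 and 1.47 in HS 1 week and 0.712 and 3.22 in HS 2 weeks, against 3.85, 3.64 and 2.30 in NI. The FT 1 week and HS 2 weeks replicate 1 libraries were the lowest, and HS 2 weeks replicate 2 lay within NI.

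Genes of paralog numbers 1 to 5 belong to the hindbrain and cervical cord, and among them Hoxa4 was the steady and abundant one. Hoxa4 (chr6:52189671-52191753, minus strand) had 9.40 normalized counts in FT 1 week, 11.03, 10.7 and 14.97 in FT 2 weeks, 9.21, 21.0 and 8.93 in HS 1 week and 10.3 and 10.9 in HS 2 weeks, against 15.9, 9.38 and 12.6 in NI. All groups overlapped NI, and the range over libraries was 2.35-fold. Hoxa3 (chr6:52169062-52213336, minus strand), a gene of hindbrain and neck development, had 3.89 normalized counts in FT 1 week, 3.94, 3.61 and 3.85 in FT 2 weeks, 3.03, 3.56 and 1.96 in HS 1 week and 2.49 and 3.08 in HS 2 weeks, against 2.67, 4.79 and 3.38 in NI. It too kept a narrow range, 2.45-fold, with FT 1 week inside NI. Hoxa5 (chr6:52201754-52204587, minus strand), which acts in cervical motor neurons, had 0.806 normalized counts in FT 1 week, 2.92, 5.13 and 8.52 in FT 2 weeks, 2.67, 5.03 and 1.53 in HS 1 week and 1.35 and 4.32 in HS 2 weeks, against 5.34, 4.79 and 3.45 in NI. It was lowest in FT 1 week and highest in FT 2 weeks replicate 3, with a range of 10.6-fold.

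Hoxa2 (chr6:52162417-52164831, minus strand), a hindbrain gene, had 0.269 normalized counts in FT 1 week, 1.97, 1.28 and 0.815 in FT 2 weeks, 1.09, 2.95 and 0.856 in HS 1 week and 0.356 and 1.68 in HS 2 weeks, against 2.83, 1.53 and 1.30 in NI. Its lowest libraries were FT 1 week and HS 2 weeks replicate 1. Hoxd1 (chr2:74762980-74765142, plus strand) had 2.28 normalized counts in FT 1 week, 0.438, 1.75 and 1.33 in FT 2 weeks, 1.45, 1.65 and 1.16 in HS 1 week and 0.854 and 2.71 in HS 2 weeks, against 1.96, 1.47 and 1.94 in NI. In FT 1 week it lay above every NI library, as did Hoxd8, and these were the only 2 of the 28 genes to do so. The log2 fold change of Hoxd1 there was 0.24 (SE 0.428, limma adjusted p = 0.886).

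Over all 28 genes, each injured group was compared with NI. A gene was called at an adjusted p under 0.05 over the 16388 tested genes and a change of at least 2-fold, and all 28 Hox genes were tested. In FT 1 week against NI, limma-trend called 0 of 28, where it called 0.452% of all genes, and 10 of 28 had an unadjusted p under 0.05, all lower, against 11.2% of all genes in either direction and 6.65% lower. The likelihood ratio test called 3 there (Hoxa7, Hoxb7 and Hoxd10, all lower), where it called 1.67% of all genes. DESeq2 called 2 (2.26% of all genes) and the quasi-likelihood test 0. With array quality weights limma-trend called 4, the same 3 and Hoxd3, where it called 5.66% of all genes. The median log2 fold change was -0.86 over the Hox genes. Placing Hoxd10 at its bound could not change this median, since its value of -2.12 was already the lowest of the 28. The median was -0.02 over all genes and -0.19 over genes in the range of levels of the Hox genes. The sign was negative in 25 of 28, against 51.5% of all genes and 63.2% of the 9016 genes within the range of levels of the Hox genes. The FT 1 week library lay below every NI library in 24 of 28, against 30.1% of all genes.

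In HS 1 week against NI, limma-trend called 0 of 28 (0.0061% of all genes) and 2 had an unadjusted p under 0.05, both lower, a share near the 7.66% of all genes with such a p in either direction (3.35% lower). The likelihood ratio test, the quasi-likelihood test and DESeq2 also called 0, and limma-trend with array quality weights called 1, Hoxc4, where it called 7.73% of all genes. The median log2 fold change was -0.27 over the Hox genes, against -0.13 over genes in their range of levels. A negative sign was found in 26 of 28, against 53.7% of all genes and 64.8% of genes in that range. Leaving out HS 1 week replicate 2 made the median of the Hox genes -0.47. It was -0.43 when NI replicate 3 was left out, and -0.13 when HS 1 week replicate 3 was. Every HS 1 week library lay below every NI library in 7 of 28 (Hoxb3, Hoxb4, Hoxc4, Hoxc5, Hoxd9, Hoxa10 and Hoxd10), against 5.02% of all genes. In HS 2 weeks against NI, limma-trend called 0 of 28 (0.0122% of all genes), 2 had an unadjusted p under 0.05, both lower, a share near the 7.49% of all genes in either direction (3.66% lower). The 3 count tests called 0. The median was -0.45 over the Hox genes, against -0.10 over genes in their range of levels. The sign was negative in 26 of 28, against 52.2% of all genes and 60.7% of genes in that range. Every HS 2 weeks library lay below every NI library in 5 of 28 (Hoxd4, Hoxd9, Hoxa10, Hoxc10 and Hoxd10) and above in 0. Of all genes, 11.6% lay below in this way and 24.5% did not overlap in either direction. The 2 libraries of HS 2 weeks differed, with all 28 Hox genes higher in replicate 2 than in replicate 1, against 50.3% of all genes. The median log2 fold change was -0.06 without replicate 1 and -0.78 without replicate 2.

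In FT 2 weeks against NI, limma-trend called 0 of 28 (0.0427% of all genes), 0 had an unadjusted p under 0.05, against 10.8% of all genes, and the 3 count tests called 0. The median log2 fold change was -0.02 over the Hox genes, against -0.08 over genes in their range of levels. Of the 28, 15 were negative, against 51.6% of all genes. Leaving out 1 library gave a median of the Hox genes of -0.07 (without FT 2 weeks replicate 3) to 0.16 (without FT 2 weeks replicate 1). FT 2 weeks lay below every NI library in 1 of 28 (Hoxd4), against 7.99% of all genes. In the mean of the injured groups against NI, limma-trend called 0 of 28 (0.293% of all genes), 4 had an unadjusted p under 0.05, all lower (Hoxa7, Hoxb7, Hoxa10 and Hoxd10), and 27 of 28 were negative, against 53.4% of all genes and 64.3% of genes in their range of levels. The 4 genes are a share near the 13.9% of all genes with such a p in either direction (7.1% lower). The likelihood ratio test called 2 there (Hoxa10 and Hoxd10, lower), where it called 3.69% of all genes. DESeq2 called 1 (3.31% of all genes) and the quasi-likelihood test 0. All of these comparisons share the 3 NI libraries.

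**Figure D3:**
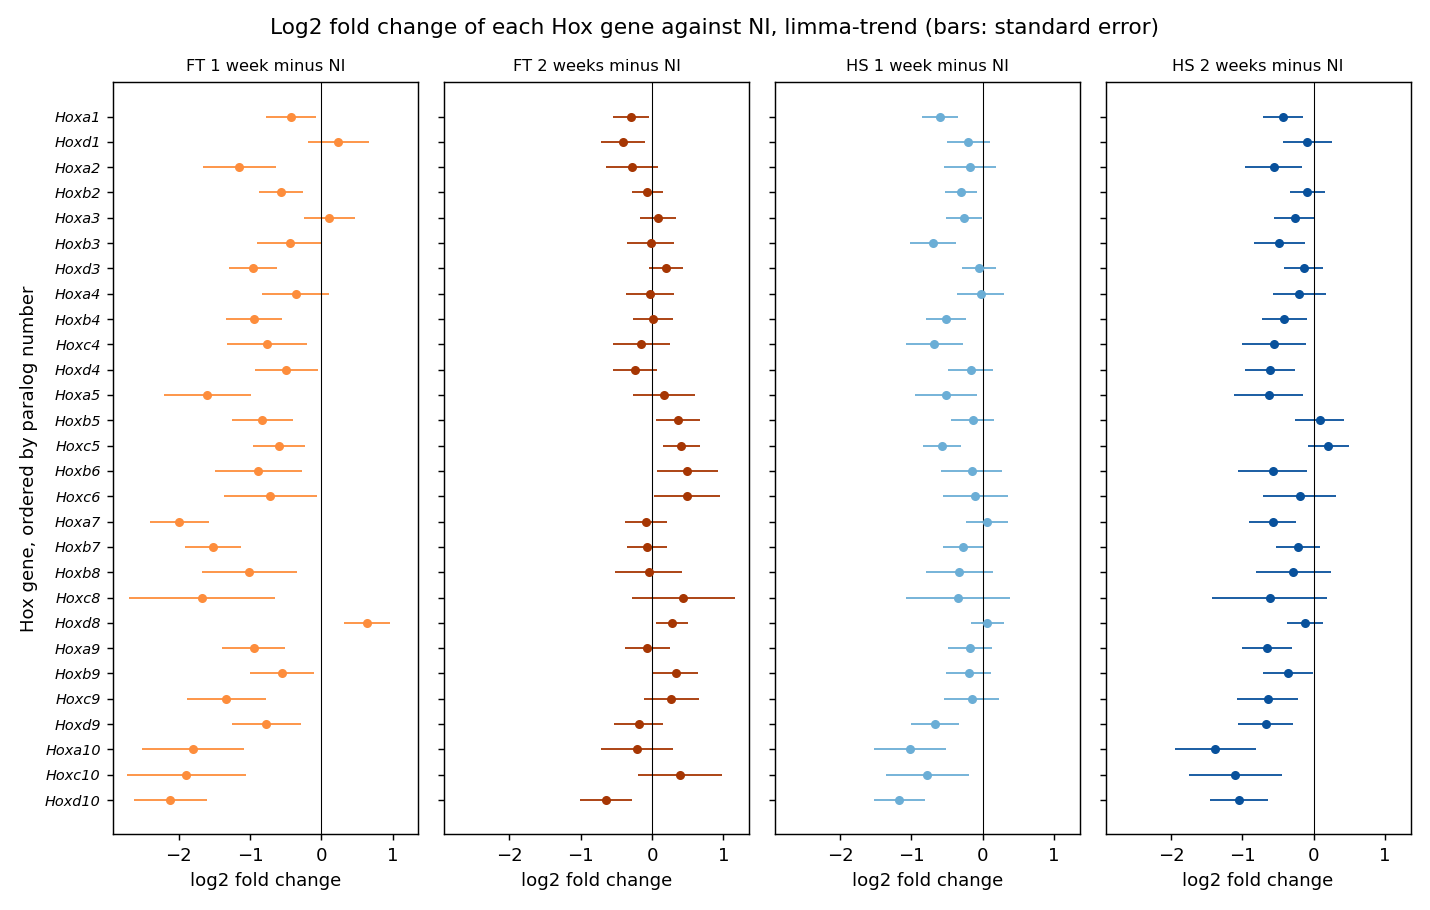
Log2 fold change of each Hox gene (rows, by paralog number) against NI in FT 1 week, FT 2 weeks, HS 1 week and HS 2 weeks, from limma-trend on log2(normalized count + 1), with bars of 1 standard error. Points in FT 1 week lie left of 0 in 25 of 28 genes, with Hoxd8 to the right, and the 3 genes of paralog number 10 are among the lowest in HS 1 week and HS 2 weeks.

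Severity and time were compared directly. In FT against HS at 1 week, limma-trend called 0 of 28 (0.348% of all genes), and 3 had an unadjusted p under 0.05, all lower (Hoxd3, Hoxa7 and Hoxb7), against 5.64% of all genes in either direction and 3.31% lower. The median over the Hox genes was -0.64, and -0.32 without HS 1 week replicate 2. Hoxa7 had a log2 fold change of -2.04 (SE 0.416, limma adjusted p = 0.0963) and was the 1 gene called by the likelihood ratio test (0.647% of all genes called), by DESeq2 (0.763%) and by limma-trend with array quality weights (1.39%), against 0 by the quasi-likelihood test. The likelihood ratio call was lost in 6 of the fits that left out 1 library, which gave 0 calls without HS 1 week replicate 1 or 2, any of the 3 FT 2 weeks replicates or NI replicate 3. In FT against HS at 2 weeks, limma-trend called 0 of 28 (0% of all genes), the 3 count tests called 0, and 2 had an unadjusted p under 0.05, both higher, against 2.26% of all genes in either direction and 1.39% higher. These were Hoxc10, with a log2 fold change of 1.49 (SE 0.656, limma adjusted p = 0.961), and Hoxb6, with 1.07 (SE 0.482, limma adjusted p = 0.961). The sign was positive in 27 of 28 Hox genes. It was negative in 51.9% of all genes and 49.9% of genes in the range of levels of the Hox genes. The Hox genes had a median of 0.40 that became 0.07 without HS 2 weeks replicate 1 and 0.76 without HS 2 weeks replicate 2.

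In 2 weeks against 1 week after FT, limma-trend called 0 of 28 (0.384% of all genes), 12 had an unadjusted p under 0.05, all higher, against 9.17% of all genes in either direction and 5.93% higher. The median was 0.96. The likelihood ratio test called 2 (Hoxa7 and Hoxd10, higher), where it called 1.12% of all genes. DESeq2 called 1 (Hoxa7, with 1.34% of all genes called), limma-trend with array quality weights called 1 (Hoxa7, with 1.8%) and the quasi-likelihood test 0. A limma-trend model of only the FT libraries, with 1 library at 1 week and 2 residual degrees of freedom, called 11, all higher (Hoxd3, Hoxa5, Hoxb6, Hoxc6, Hoxa7, Hoxb7, Hoxc8, Hoxc9, Hoxa10, Hoxc10 and Hoxd10), where it called 9.71% of all genes. The 2 calls of the likelihood ratio test became 0 without HS 1 week replicate 1, FT 2 weeks replicate 2 or NI replicate 3 and 1 (Hoxd10) without FT 2 weeks replicate 3 or NI replicate 2. In 2 weeks against 1 week after HS, limma-trend called 0 of 28 (0% of all genes), the 3 count tests called 0, and 1 had an unadjusted p under 0.05, namely Hoxc5, with a log2 fold change of 0.78 (SE 0.292), against 1.62% of all genes in either direction and 0.818% higher. The median was -0.09, and ran from -0.38 without HS 2 weeks replicate 2 to 0.24 without HS 2 weeks replicate 1.

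Read as spinal level, the share of Hox reads in paralog number 10 was 2.99 percent in FT 1 week, 16.0, 22.2 and 4.12 in FT 2 weeks, 5.57, 7.23 and 9.20 in HS 1 week and 7.44 and 5.57 in HS 2 weeks, against 20.5, 9.35 and 11.1 in NI. The 95% exact binomial intervals of these shares were 1.64 to 4.97% in FT 1 week, at the low end, and 19.97 to 24.6% in FT 2 weeks replicate 2, at the high end, and cover counting error only. Libraries of 1 group differed by more than counting error, since FT 2 weeks replicate 3 (upper bound 5.09%) lay apart from FT 2 weeks replicates 1 (lower bound 14.2%) and 2. On this scale all 5 HS libraries lay below every NI library, although the interval of HS 1 week replicate 3 (7.54 to 11.1%) overlapped that of NI replicate 2 (8.09 to 10.7%), and FT 2 weeks libraries lay above, within and below NI. Per kb of exon this separation was lost, since HS 1 week replicate 3 held 9.67% in paralog number 10, against 9.23% in NI replicate 2. The mean paralog number, weighted by signal per kb, was 6.05 paralog units in FT 1 week, 6.80, 7.15 and 6.46 in FT 2 weeks, 6.52, 6.38 and 6.31 in HS 1 week and 6.13 and 6.33 in HS 2 weeks, against 6.90, 6.51 and 6.21 in NI. NI replicate 1 and the first 2 replicates of FT 2 weeks were highest. Paralog numbers 6 and 7 held 5.86% of the per-kb signal in FT 1 week, against 13.1 to 20.9% in NI, and lay at 15.1% or above in every other injured library. Paralog numbers 8 and 9 were the largest class in 9 of 12 libraries and held 29.1 to 47.1%, and numbers 4 and 5 held 21.0 to 35.9%.

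**Figure D4:**
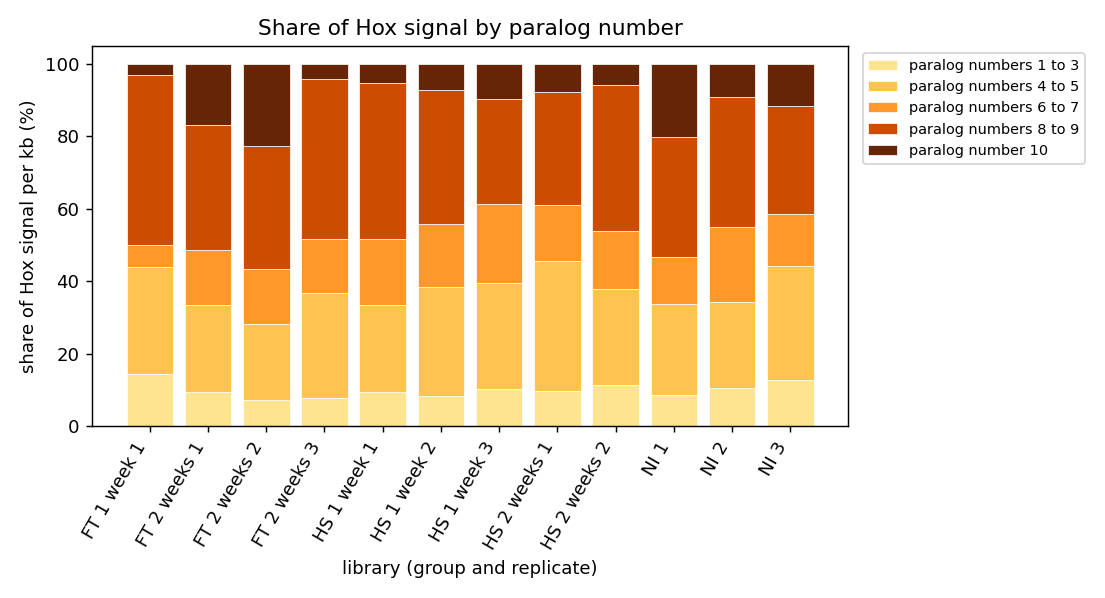
Share of the Hox signal per kb of exon (percent) held by 5 classes of paralog number in each of the 12 libraries. The class of paralog number 10 ranges between 3.09% in FT 1 week and 22.5% in FT 2 weeks replicate 2, and the class of numbers 6 and 7 is smallest in FT 1 week, at 5.86%.

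Marker sums of other cell types also differed between libraries, and not all of them in step with the Hox signal. The sum of the 28 Hox genes was 62.9 normalized counts in FT 1 week, 105, 151 and 149 in FT 2 weeks, 89.2, 137 and 65.8 in HS 1 week and 56.4 and 113 in HS 2 weeks, against 148, 124 and 92.0 in NI. The 14 listed microglia and macrophage markers were all in the table and none was at 0 in any library, and their sum was 13130 normalized counts in FT 1 week, 2430, 1790 and 3199 in FT 2 weeks, 4393, 1177 and 15977 in HS 1 week and 15477 and 2389 in HS 2 weeks, against 938, 6905 and 8914 in NI. The 3 libraries with the lowest Hox sums, HS 2 weeks replicate 1, FT 1 week and HS 1 week replicate 3, were the 3 with the highest microglial sums. In the 5 libraries with the highest microglial sums the median level was lower than in the other 7 for 27 of the 28 Hox genes, against 49.3% of all genes, and this is a description of libraries and not of the study's groups. With the log2 microglial sum as a covariate, an alternative chosen after seeing the data, the log2 fold change of FT 1 week against NI was -1.81 for Hoxa7 and -1.82 for Hoxd10, both called by limma-trend, which called 5.03% of all genes there, and the median over the Hox genes was -0.62. Over the injured groups that fit called 1 Hox gene, Hoxd10, and 4.66% of all genes. Without the 5 libraries, which hold the FT 1 week library, HS 1 week against NI gave -1.76 for Hoxd10 and -1.67 for Hoxc10, with 0 genes called. NI was then replicate 1 alone, its highest library for all 3 genes of paralog number 10, and with all libraries Hoxc10 had -0.78.

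**Figure D5:**
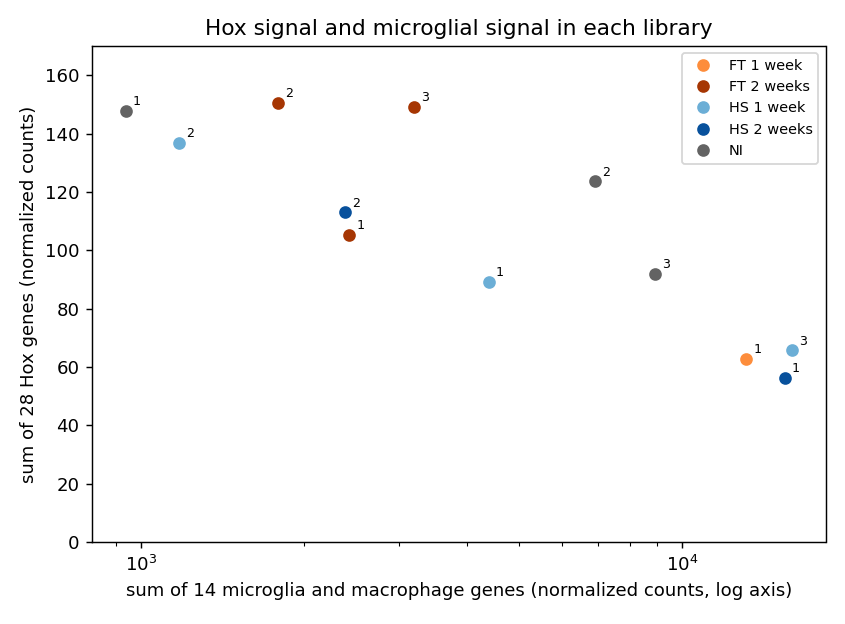
Sum of the 28 Hox genes (normalized counts, linear axis) against the sum of 14 microglia and macrophage markers (normalized counts, log axis) in each library, colored by group and numbered by replicate. The 3 libraries with the highest microglial sums, FT 1 week, HS 1 week replicate 3 and HS 2 weeks replicate 1, have the 3 lowest Hox sums, at 62.9, 65.8 and 56.4.

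The sum of the 9 pericyte and fibroblast markers was 908 normalized counts in FT 1 week, 6166, 11815 and 8346 in FT 2 weeks, 2380, 1840 and 282 in HS 1 week and 1465 and 4760 in HS 2 weeks, against 7209, 754 and 605 in NI. The highest 4 were the 3 FT 2 weeks libraries and NI replicate 1, and 3 of these had the highest summed levels of paralog number 10, at 16.9 and 33.4 normalized counts in FT 2 weeks replicates 1 and 2 and 30.3 in NI replicate 1. FT 2 weeks replicate 3, with 8346 for these markers, had 6.15 for paralog number 10. The sum of the 10 neuronal markers was lowest in FT 1 week, at 19.1 normalized counts, against 110, 65.8 and 48.6 in NI.

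The sum of the 12 astrocyte markers was 2808 normalized counts in FT 1 week, 5828, 7180 and 7955 in FT 2 weeks, 7611, 11285 and 1396 in HS 1 week and 2084 and 6332 in HS 2 weeks, against 6347, 5361 and 1582 in NI. Its 4 lowest libraries were the 3 with the lowest Hox sums and NI replicate 3. In FT 1 week against NI these markers had a median log2 fold change of -1.19, and neither limma-trend nor the likelihood ratio test called any (0 of 12). Not every marker was lower there. Gfap had 304 normalized counts in FT 1 week, against 154, 100 and 33.3 in NI. S100b held 1553 of the FT 1 week sum of 2808 and lay within NI (2272, 853 and 766). Of 5 listed ependymal markers 4 were in the table, and their sum was 12.6 normalized counts in FT 1 week, 53.2, 94.1 and 74.0 in FT 2 weeks, 34.3, 57.0 and 89.4 in HS 1 week and 32.6 and 43.0 in HS 2 weeks, against 105, 168 and 106 in NI. This sum was below every NI library in all injured libraries and lowest in FT 1 week, but the single markers did not separate in this way. Rarres2 held 91.5 of the 105 in NI replicate 1, where Foxj1 was at its lowest of the 12 libraries (1.57). HS 1 week replicate 3 had 17.1 for Ccdc153 and 46.2 for Tmem212, against 3.77 and 8.09 in NI replicate 1. In FT 1 week against NI the 4 markers had a median log2 fold change of -2.66. Limma-trend called 0 of them and the likelihood ratio test 1. Of 8 listed blood cell markers 5 were in the table, and their sum was 181 normalized counts in FT 1 week, 50.8, 61.8 and 91.9 in FT 2 weeks, 94.2, 93.4 and 1148 in HS 1 week and 263 and 69.7 in HS 2 weeks, against 322, 2822 and 5134 in NI. It was highest in NI replicates 3 and 2, and HS 1 week replicate 3 lay above NI replicate 1. The 5 markers did not move together. Ptprc had 164 normalized counts in FT 1 week, 244 in HS 1 week replicate 3 and 231 in HS 2 weeks replicate 1, against 20.3, 111 and 127 in NI. In the other injured libraries Ptprc had 6.51 to 52.6. S100a8 had 9.54 in FT 1 week, against 173, 1573 and 3291 in NI. Against NI the blood cell markers had median log2 fold changes of -3.90 in FT 1 week, -3.37 in FT 2 weeks, -3.17 in HS 1 week and -3.87 in HS 2 weeks. Limma-trend called 1 of 5 in each FT group and 0 in each HS group. The likelihood ratio test called 4 of 5 in HS 2 weeks and FT 2 weeks and 1 of 5 in HS 1 week and FT 1 week, all lower. In these comparisons limma-trend called 0.0061 to 0.452% of all genes and the likelihood ratio test 0.433 to 1.71%. The part of these cell types in the Hox levels was not tested beyond the alternatives named.

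None of the listed partners and regulators of Hox proteins was called, in lists too short to expect calls at the shares of all genes. Against NI in single injured groups, limma-trend called 0.0061 to 0.452% of all genes and the likelihood ratio test 0.433 to 1.71%. An unadjusted p under 0.05 was reached by 11.2% of all genes in FT 1 week and 10.8% in FT 2 weeks. The TALE cofactors (Pbx, Meis and Pknox genes, which bind DNA with Hox proteins) were 9 of 9 in the table and summed to 124 to 155 normalized counts per library. Limma-trend and the likelihood ratio test called 0 of 9 against NI in any injured group, with 2 at an unadjusted p under 0.05 in FT 1 week. Of the 14 Cdx, retinoid and growth factor genes 9 were in the table, 0 were called by either tool in any injured group, and 1 had an unadjusted p under 0.05 in FT 1 week. Of 18 Polycomb and Trithorax genes 16 were in the table, 0 were called by either tool, and 0 in FT 1 week and 3 in FT 2 weeks had an unadjusted p under 0.05. Of 15 genes of forebrain, midbrain and cerebellar identity, 1 was in the table, En2, at 0.466 to 1.39 normalized counts.

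Of 20 listed non-coding RNAs and genes of the regions around the Hox clusters 7 were in the table, and 1 of them, Snx10, was called by limma-trend in an injured group. Snx10, a sorting nexin gene on the chromosome of the Hoxa cluster but apart from it (chr6:51523901-51590679, plus strand), had 180.2 normalized counts in FT 1 week, 71.5, 83.3 and 68.7 in FT 2 weeks, 95.2, 81.7 and 58.4 in HS 1 week and 98.3 and 92.5 in HS 2 weeks, against 36.0, 37.0 and 40.7 in NI. Every injured library lay above every NI library, which held for 1.97% of all genes. The log2 fold change of Snx10 was 2.22 in FT 1 week against NI (SE 0.274, limma adjusted p = 0.00479) and 1.37 over the injured groups (SE 0.163, limma adjusted p = 0.00862). In the same FT 1 week library 6 of the 8 Hoxa genes lay below every NI library, against 30.1% of all genes. Hoxa3 and Hoxa4 lay within NI.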

How the data were processed

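The submitters' processing notes name TopHat2 2.0.9, HTSeq 0.5.4p3 and edgeR 3.3.6 with the mm10 (GRCm38) build, which the authors used to align, count and normalize reads, and they dropped genes of low count. Deposited values are a signal, that is, reads of a gene scaled by a factor particular to the library. Division by the value of 1 read gave whole reads for 100% of values (tolerance 1e-06), and these reads were used for the count tests. Log2(normalized count + 1) was tested with limma-trend (limma 3.58.1, R 4.3.3) in 1 model of 5 groups, keeping genes whose mean reached 0.5 in 1 or more groups, with Benjamini-Hochberg adjustment over all 16388 genes. Alternatives were edgeR 4.0.16 (quasi-likelihood and likelihood ratio tests), DESeq2 1.42.0, pseudocounts of 0.25 and 4, no filter and a minimum of 5, median-ratio scaling, array weights, a replicate block, only the compared groups, the adjusted p alone, and each library left out. The model was tested on simulated reads, with changes set in FT 2 weeks and in better covered genes. That run does not cover the low levels of most Hox genes or the single FT 1 week library. Levels per kb used GENCODE exon lengths. Values are given in every library for the highest gene of each paralog number, paralog number 10, genes whose maximum exceeds 5 medians, and Hoxd10. They are also given for each gene called by the main limma-trend fit, an edgeR test or DESeq2 on all libraries. Hoxd3, Hoxc4 and Hoxb6, called only under other alternatives, are named without them. The members and gene lists were chosen with earlier results of these data known. Depth was 8270643 to 15562378 reads per library, and intervals cover counting error only.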

Additional observations from a re-analysis of the deposited data

How the results depend on the processing

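Counts of Hox genes called by limma-trend were compared over all alternatives in 9 comparisons, and 206 of the values stayed at the main count and 16 moved. In HS 1 week against NI, array weights called 1 (Hoxc4). In FT 1 week against NI, a pseudocount of 0.25 called 1 (Hoxd10), array weights 4 (Hoxa7, Hoxb7, Hoxd10 and Hoxd3), the likelihood ratio test 3, DESeq2 2 and the microglial covariate, an alternative chosen after seeing the data, 2 (Hoxa7 and Hoxd10). In the injured groups against NI, the likelihood ratio test called 2, DESeq2 1 and the covariate 1 (Hoxd10). In FT against HS at 1 week, array weights, the likelihood ratio test and DESeq2 each called 1 (Hoxa7). In 2 weeks against 1 week after FT, a model of only the compared groups called 11, array weights 1, the likelihood ratio test 2 and DESeq2 1. The cause of these differences was not tested. Leaving out any 1 library gave 0 calls by limma-trend in every comparison that could still be fitted. With the likelihood ratio test it gave 1 to 3 calls in FT 1 week against NI, 1 to 2 over the injured groups, 0 to 1 in FT against HS at 1 week and 0 to 3 in 2 weeks against 1 week after FT. The median log2 fold change of the Hox genes in FT 1 week against NI ran from -1.67 with a minimum mean of 5 to -0.36 with a pseudocount of 4. Of 2823 values of single named genes under the alternatives, 83 had the other sign from the main value, and no such gene was called in either fit. The fit without the 5 libraries of highest microglial sum and the likelihood ratio tests without 1 library were also chosen after seeing the data.

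The fit with the replicate block, which leaves out FT 1 week, called 0 Hox genes in the 5 comparisons it covers, as did the fit without it. Whether replicate numbers pair the libraries was not settled. Of 15 same-numbered pairs, 5 had correlations over 0.1, in a range of -0.48 to 0.72. The signs were not free, so these correlations cannot decide it. With HS 1 week replicate 1, for example, HS 2 weeks replicate 1 had -0.252 and HS 2 weeks replicate 2 had 0.252. Shares by paralog number from counts not divided by length gave 2.99 to 22.2% for paralog number 10, against 3.09 to 22.5% per kb. Opposite-strand forms could not be added to the shares, since 0 were in the table. Comparisons with FT 1 week and the mean of the injured groups have no value without the 5 libraries of highest microglial sum, which hold it. Depth limits these genes, of which 20 had fewer than 10 reads in at least 1 library.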
